A study of Arabidopsis thaliana with 22 samples.

Results

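The 10 genes described here encode enzymes of the plant sterol pathway that lies upstream of the brassinosteroids (BRs), the steroid hormones of plants. They were taken by name as known enzymes of that pathway and not by a measured value, although earlier results of these data were known when the list was made. They make up 10 of the 32833 genes in the expression table. In pathway order they are *CAS1* (AT2G07050), *SMT1* (AT5G13710), *CYP51G1* (AT1G11680), *FK* (AT3G52940), *HYD1* (AT1G20050), *SMT2* (AT1G20330), *SMT3* (AT1G76090), *STE1* (also *DWF7*, AT3G02580), *DWF5* (AT1G50430) and *DWF1* (AT3G19820). All 10 had enough reads to be tested in every comparison.

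Plant sterols are built from squalene, whose epoxide CAS1 folds into cycloartenol. SMT1 adds the first extra methyl group to the side chain, and CYP51G1, FK and HYD1 then reshape the ring system. Downstream of these steps the route divides. SMT2 and SMT3 methylate the side chain a further time and so direct sterols toward sitosterol, a bulk membrane lipid, whereas the other branch leads to campesterol, the precursor of BRs. STE1, DWF5 and DWF1 finish both kinds of sterol, and *dwf7*, *dwf5* and *dwf1* mutants are dwarfs because they lack BRs. Campesterol then enters BR synthesis through DWF4, CPD and related cytochrome P450 enzymes, whose genes are known to be repressed when BR signalling is high.

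Whole 7-day-old seedlings of *Arabidopsis thaliana* were profiled by QuantSeq, a method that reads the 3′ end of each mRNA. The genotypes were wild type (WT, Col-0), *baf1*, a T-DNA insertion knockout of the F-box protein gene *BAF1* held as a single line, or *bes1-D*, a gain-of-function allele of the BR transcription factor gene *BES1* that had been brought into Col-0. Plants of each genotype grew under the same conditions on DMSO medium (without BRZ) or on medium with 250 nM BRZ, an inhibitor of BR synthesis acting on DWF4. Each genotype had 4 libraries without BRZ. With BRZ, WT and *bes1-D* had 3 each and *baf1* had 4, and the submitters call all of these biological replicates. Replicates are named by the numbers in the labels, which run to 5 because some numbers are absent.

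The values are normalized reads, set by the authors to a common library size. A transcript gives about 1 read in this assay whatever its length, so levels of different genes were compared without a length scale. The 22 libraries summed to between 3633741 and 3636541 normalized reads, and their depth before that adjustment was estimated at 2130000 to 5170000 reads. *BAF1* had 290 to 399 normalized reads in WT without BRZ and 5.8 to 12.9 in *baf1*, and 218 to 317 against 0.0627 to 13.5 with BRZ, so the *baf1* libraries matched their labels. *BES1* reads cannot check the *bes1-D* label, because that allele changes the protein. The summed reads of 12 seed storage genes ran from 140.8 to 1779 in *baf1* with BRZ, highest in replicate 4, and reached 506 in replicate 1 of *baf1* without BRZ, against 7.796 to 298.5 in all remaining libraries. The libraries come from whole seedlings, so fewer cells of a type and less RNA per cell cannot be told apart.

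BES1 is known to bind E-boxes (CANNTG) and the BR response element (CGTGTG or CGTGCG), and bHLH and bZIP factors bind the G-box (CACGTG), which is also an E-box. These letters were searched on both strands in the 250 bases before the annotated start of each gene in the RefSeq annotation of TAIR10.1, with sites allowed to overlap. The promoters of *CYP51G1*, *SMT3* and *DWF1* are printed because these transcripts differed between groups, and that of *DWF5* because it alone among the 10 held a G-box. Each runs 5′ to 3′ on the strand of its gene, and capitals mark E-boxes, G-boxes included.
CYP51G1, chr1:3938172-3938421, plus strand: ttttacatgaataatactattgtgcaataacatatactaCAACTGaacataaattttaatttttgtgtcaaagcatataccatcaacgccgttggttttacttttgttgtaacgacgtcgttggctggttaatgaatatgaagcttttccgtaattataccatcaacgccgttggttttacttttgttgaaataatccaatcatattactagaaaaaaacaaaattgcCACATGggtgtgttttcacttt
SMT3, chr1:28551837-28552086, minus strand: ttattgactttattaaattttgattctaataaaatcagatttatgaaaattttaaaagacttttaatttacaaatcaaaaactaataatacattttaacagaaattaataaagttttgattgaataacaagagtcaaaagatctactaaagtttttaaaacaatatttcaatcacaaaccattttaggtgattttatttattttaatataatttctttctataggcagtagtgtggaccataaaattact
DWF1, chr3:6882316-6882565, minus strand: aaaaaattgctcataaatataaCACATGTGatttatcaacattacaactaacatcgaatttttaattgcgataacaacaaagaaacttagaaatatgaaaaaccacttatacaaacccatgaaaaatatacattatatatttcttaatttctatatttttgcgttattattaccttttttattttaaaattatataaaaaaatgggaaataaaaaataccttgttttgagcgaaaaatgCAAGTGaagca
DWF5, chr1:18685653-18685902, minus strand: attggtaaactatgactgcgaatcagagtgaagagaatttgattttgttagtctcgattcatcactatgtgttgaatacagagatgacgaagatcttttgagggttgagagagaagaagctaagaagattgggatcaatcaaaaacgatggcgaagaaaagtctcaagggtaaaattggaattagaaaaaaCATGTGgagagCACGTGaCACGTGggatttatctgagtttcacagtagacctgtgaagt

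The *DWF5* stretch carried 2 G-boxes, whose first bases lay at -48 and -41 from the start, and a further E-box at -59. *CYP51G1* had E-boxes at -211 and -22, *DWF1* had 3, 2 of which overlap, and *SMT3* had none. An E-box occurred in 7 of the 10 sterol promoters and in 6 of the 7 promoters of BR synthesis genes, against 55.3% of 27443 promoters of the same length. The G-box occurred in 1 of the 10 and in 6.49% of all promoters. CGTGTG was found in 0 of the 10 and in 5.37% of all promoters, and CGTGCG in 0 of the 10 and in 1.57%. The G-box and both of these forms were found in 0 of the 7 promoters of BR synthesis genes. These counts describe letters in this window and are not evidence of binding or of its absence.

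*SMT2* and *SMT3* are close relatives, so their coding sequences were compared to see whether short reads could be confused between them. They were identical at 79.0% of 1080 aligned coding bases, whereas *SMT1* shared 56.3% with *SMT2* and 56.5% with *SMT3*. The stretch of 90 coding bases from position 987 to 1076 of each, counted from the first coding base, shows how the pair differ near the 3′ end. Capitals mark the 13 differing bases.
SMT2: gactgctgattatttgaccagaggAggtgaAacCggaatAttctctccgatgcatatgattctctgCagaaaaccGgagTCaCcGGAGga
SMT3: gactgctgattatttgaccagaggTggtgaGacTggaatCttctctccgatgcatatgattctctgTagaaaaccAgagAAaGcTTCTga
The longest run shared by both transcripts was 37 bases, and 25 bases within their last 500 bases, both under the read length of 50 bases. *HYD1* overlaps AT1G20060 by 117 bases on the other strand, and *DWF1* overlaps AT3G19810 by 20 bases on the same strand. The assignment of reads in those overlaps is uncertain. AT1G20060 had 0.481 to 13.8 normalized reads and AT3G19810 had 65.5 to 164, far fewer than the sterol gene each overlaps.

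*DWF1*, which encodes the enzyme that yields campesterol, was by far the most abundant of the 10 transcripts, with a lowest value of 5022, a median of 5912 and a highest value of 7476 normalized reads over the 22 libraries. It made up between 71.3% and 75.8% of the summed reads of the 10 genes in the group means and stood at the 99.8th percentile of all genes. The next was *SMT1* with 459.5, 615.2 and 720.2 in the same order, followed by *CYP51G1* with 269.2, 405 and 493.3. *DWF1* did not overlap with any other member in any library, whereas the ranges of *SMT1* and *CYP51G1* met at their ends.

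Below these, *SMT2* (median 219.4), *SMT3* (208.4), *CAS1* (185.9), *HYD1* (169.1), *STE1* (156) and *DWF5* (125.2) formed a series in which the library ranges of neighbours overlapped, so their order is not separated beyond the spread. *FK*, encoding the reductase that acts after CYP51G1, was lowest with 16.77 to 51.05 normalized reads and a median of 32.53, below every library of the other 9. Group means of a gene varied little. The highest group mean exceeded the lowest by 1.16-fold for *CAS1*, 1.23-fold for *DWF5* and 1.28-fold for *DWF1*, up to 1.6-fold for *STE1* and 1.72-fold for *SMT3*. A moderated F test over all 6 groups in limma called 4 of the 10 (*SMT3*, adjusted p = 0.000463; *CYP51G1*, 0.00165; *SMT1*, 0.0302; *HYD1*, 0.0439), beside 18.3% of all genes tested. The calls for *SMT3* and *CYP51G1* held when each of the 22 libraries was left out in turn. That for *SMT1* was lost without any of 6 libraries (adjusted p = 0.0533 to 0.0852; replicates 1, 2 and 3 of *baf1* with BRZ, replicate 4 of *bes1-D* without BRZ, and replicates 3 and 5 of *bes1-D* with BRZ) and that for *HYD1* without any of 16 (0.05 to 0.123), the exceptions being replicate 5 of WT, replicate 1 of *baf1* without BRZ, replicates 2 and 4 of *baf1* with BRZ, and replicates 1 and 5 of *bes1-D* with BRZ.

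**Figure D1:**
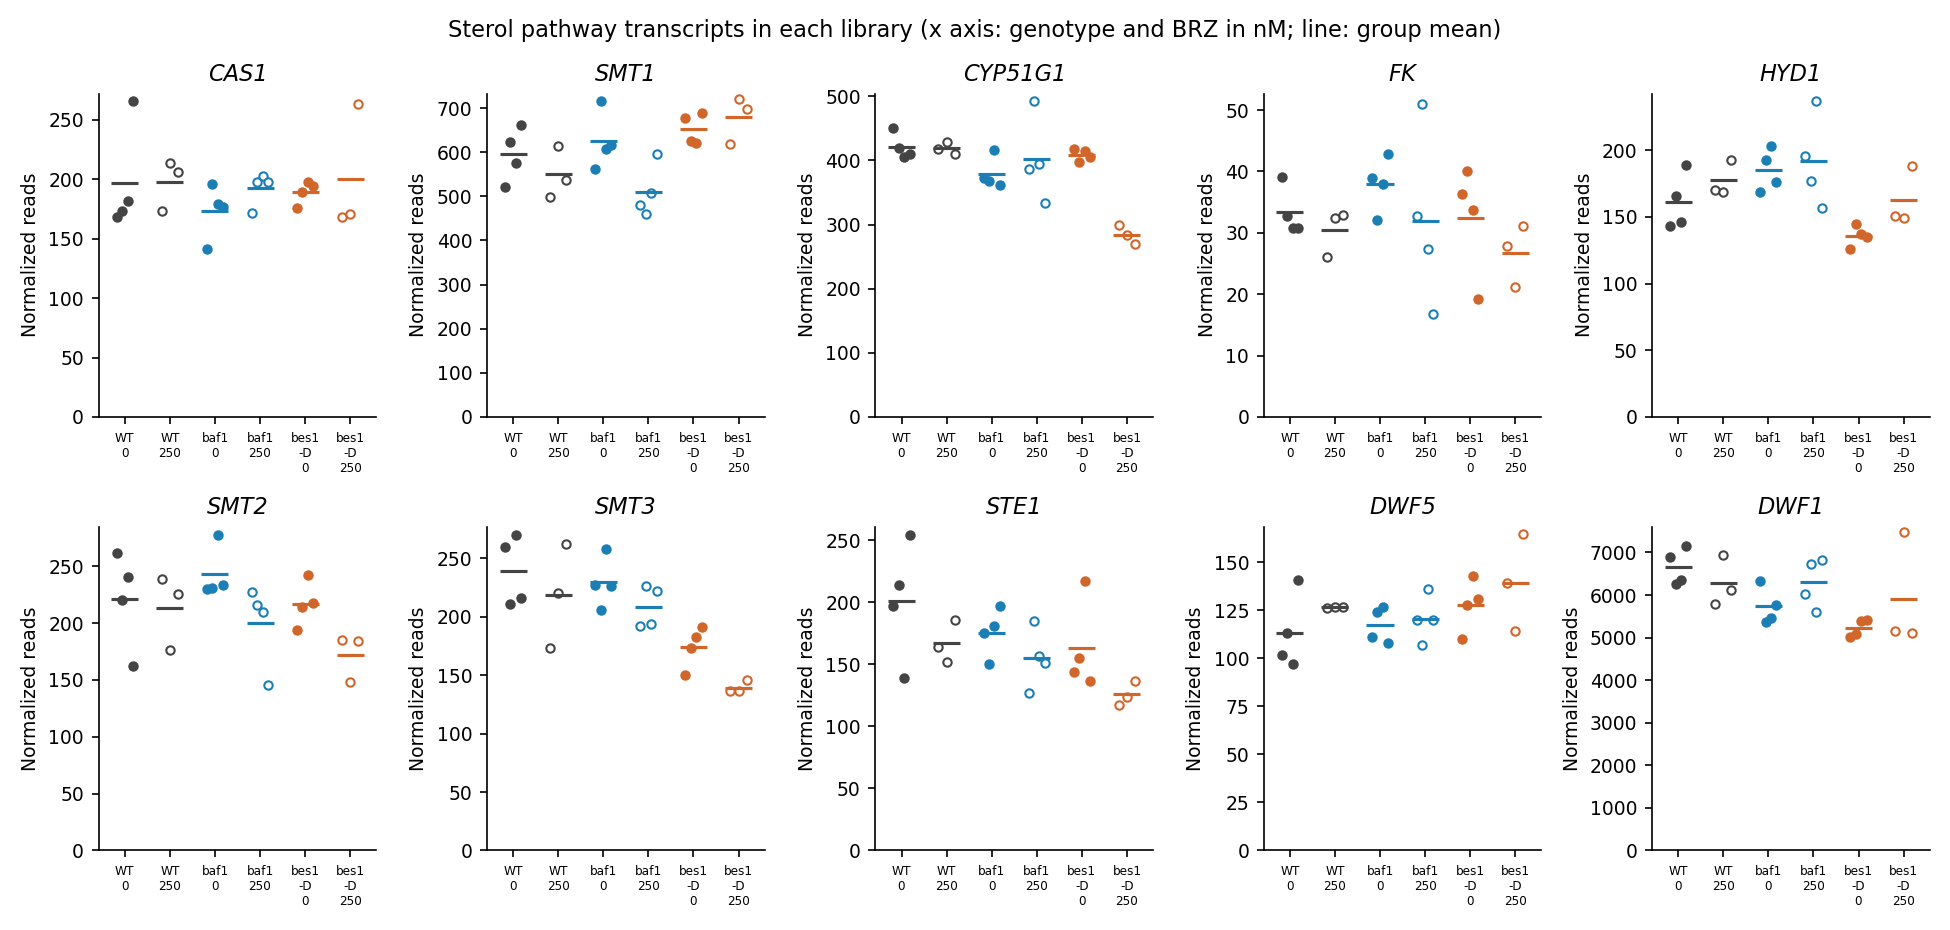
Normalized reads (y axis, linear from 0) of each of the 10 sterol pathway genes in every library, by genotype and BRZ in nM (x axis), with filled points without BRZ, open points with BRZ and a line at the group mean. *CYP51G1* lies at 269 to 300 in *bes1-D* with BRZ and at 333 or more in all other libraries, and *SMT3* is lower in *bes1-D* than in WT within each treatment.

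The comparison of *bes1-D* with WT asked whether constitutive BES1 activity accompanies a change of sterol gene transcripts. Averaged over both treatments, 4 of the 10 transcripts were lower in *bes1-D* (*SMT3*, *STE1*, *CYP51G1* and *DWF1*), where 8.02% of all tested genes were lower, and 1 was higher (*SMT1*), where 12.6% were. The median difference of the 10 was -0.17 on the log2 scale against 0.06 over all 16331 genes tested. Of the side-chain methyltransferases *SMT3* fell, *SMT1* rose and *SMT2* did not pass the test (-0.16, 95% interval -0.38 to 0.07).

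*SMT3* had 260, 211, 270 and 216 normalized reads in WT without BRZ and 150, 173, 183 and 191 in *bes1-D* without BRZ. With BRZ it had 173, 220 and 262 in WT and 136, 136 and 146 in *bes1-D*. Every *bes1-D* library was below every WT library of the same treatment. *SMT3* fell by 0.45 (SE 0.12) on the log2 scale without BRZ (limma, adjusted p = 0.0321; exact permutation p = 0.029, the smallest that 4 against 4 can give) and by 0.63 (SE 0.17) with BRZ (adjusted p = 0.0201; exact permutation p = 0.1, the smallest for 3 against 3). Averaged over both, it fell by 0.54 (SE 0.09) to 0.689 of WT (adjusted p = 8.96e-05), and this call held without any single library (adjusted p = 1.71e-05 to 0.000712). The 2 separate calls did not. The call without BRZ was lost without replicate 1 or 4 of WT or replicate 1, 2 or 3 of *bes1-D* (adjusted p = 0.058 to 0.0918), and the call with BRZ without replicate 2 or 3 of WT or replicate 3 or 5 of *bes1-D* (0.0513 to 0.145).

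*CYP51G1*, which encodes the demethylase that removes a methyl group from the sterol ring, was called with BRZ and not without it. It had 451, 419, 405 and 410 normalized reads in WT without BRZ and 417, 397, 415 and 405 in *bes1-D*. With BRZ it had 418, 429 and 410 in WT but 300, 283 and 269 in *bes1-D*. These last 3 were below all other 19 libraries of the series. The difference with BRZ was -0.56 (SE 0.14) on the log2 scale, or 0.678 of WT (limma, adjusted p = 0.00982), and the call held without any single library (adjusted p = 0.01 to 0.0479). The exact permutation p was 0.1, the smallest for 3 against 3. Without BRZ the difference was -0.04 with a 95% interval from -0.23 to 0.15. The change of the genotype difference with BRZ did not pass the adjusted test (interaction, adjusted p = 0.105).

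*DWF1* was called without BRZ and not with it. It had 6893, 6264, 6359 and 7163 normalized reads in WT without BRZ and 5022, 5091, 5397 and 5408 in *bes1-D* without BRZ, groups that did not overlap. With BRZ it had 5794, 6939 and 6122 in WT and 5148, 7476 and 5105 in *bes1-D*, where replicate 3 held the highest value of all 22 libraries and the groups overlapped. *DWF1* fell by 0.35 (SE 0.08) in *bes1-D* without BRZ (limma, adjusted p = 0.0149; exact permutation p = 0.029), but not past the threshold with BRZ (-0.11, SE 0.15, adjusted p = 0.726). The change of that difference with BRZ was 0.24 (interaction, adjusted p = 0.564). The call without BRZ was lost without replicate 2 of *bes1-D* (adjusted p = 0.0701). The difference averaged over both treatments was -0.23 (adjusted p = 0.0362), and 8 of 22 left-out libraries ended that call (0.052 to 0.126), namely replicates 1 and 5 of WT and 1 and 2 of *bes1-D* without BRZ, and replicates 2 and 3 of WT and 1 and 5 of *bes1-D* with BRZ.

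*SMT1*, whose product opens the methylated branch of the pathway, was the only transcript of the 10 called higher in *bes1-D*. Without BRZ it had 521, 623, 575 and 661 normalized reads in WT and 677, 626, 622 and 688 in *bes1-D*, which overlap. With BRZ it had 499, 614 and 537 in WT and 619, 720 and 698 in *bes1-D*, which do not. The averaged difference was 0.22 (SE 0.08, adjusted p = 0.0389). It was lost with median-of-ratios scaling (0.17, adjusted p = 0.117) and without any of 8 of 22 libraries (0.0607 to 0.116), namely replicates 1 and 4 of WT and of *bes1-D* without BRZ, and replicates 1 and 3 of WT and 3 and 5 of *bes1-D* with BRZ.

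*STE1*, which encodes the desaturase mutated in *dwf7*, had 197, 214, 139 and 254 normalized reads in WT without BRZ and 144, 155, 217 and 137 in *bes1-D*. With BRZ it had 164, 152 and 186 in WT and 117, 124 and 137 in *bes1-D*. The genotypes overlapped without BRZ and did not with BRZ. Its averaged difference was -0.35 (SE 0.12, adjusted p = 0.0374), a call that was lost without any of 10 libraries (0.0537 to 0.0988), namely replicates 1, 2 and 5 of WT and 1, 2 and 4 of *bes1-D* without BRZ, and replicates 1 and 3 of each with BRZ. Neither treatment alone gave a call (adjusted p = 0.348 without BRZ and 0.125 with BRZ).

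Counted by treatment, 2 of the 10 were lower without BRZ, *SMT3* and *DWF1*, where 3.44% of all tested genes were lower, and the libraries of the genotypes did not overlap for the same 2, as for 14.4% of genes. With BRZ 2 were lower, *CYP51G1* and *SMT3*, beside 5.3% of genes. The study itself called genes by fold changes over 1.1 with P under 0.05 before adjustment. By this criterion *STE1* joined them as lower (3 of 10, beside 10.7% of genes) and *SMT1* was higher (1 of 10, beside 13.7%). Those 4 were also the members without overlap, a state shared by 27.9% of genes. With no filter on low values the calls of *SMT3* and *DWF1* without BRZ (adjusted p = 0.107 and 0.0643), of *SMT3* with BRZ (0.154), and of *DWF1*, *STE1* and *SMT1* on average (0.0836, 0.0956 and 0.0568) were lost, and those of *CYP51G1* with BRZ and of *SMT3* and *CYP51G1* on average were not.

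The remaining members did not pass the test in *bes1-D* in either treatment or on average. *HYD1*, encoding the sterol isomerase whose mutants are known for embryo defects, had 126 to 145 normalized reads in *bes1-D* and 143 to 189 in WT without BRZ, a difference of -0.24 (95% interval -0.50 to 0.02). *CAS1* differed by -0.02 on average (95% interval -0.25 to 0.21), *DWF5* by 0.15 (-0.06 to 0.36) and *FK* by -0.14 (-0.53 to 0.26). Apart from that of *DWF5*, these intervals include -0.23, the averaged difference of *DWF1*.

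**Figure D2:**
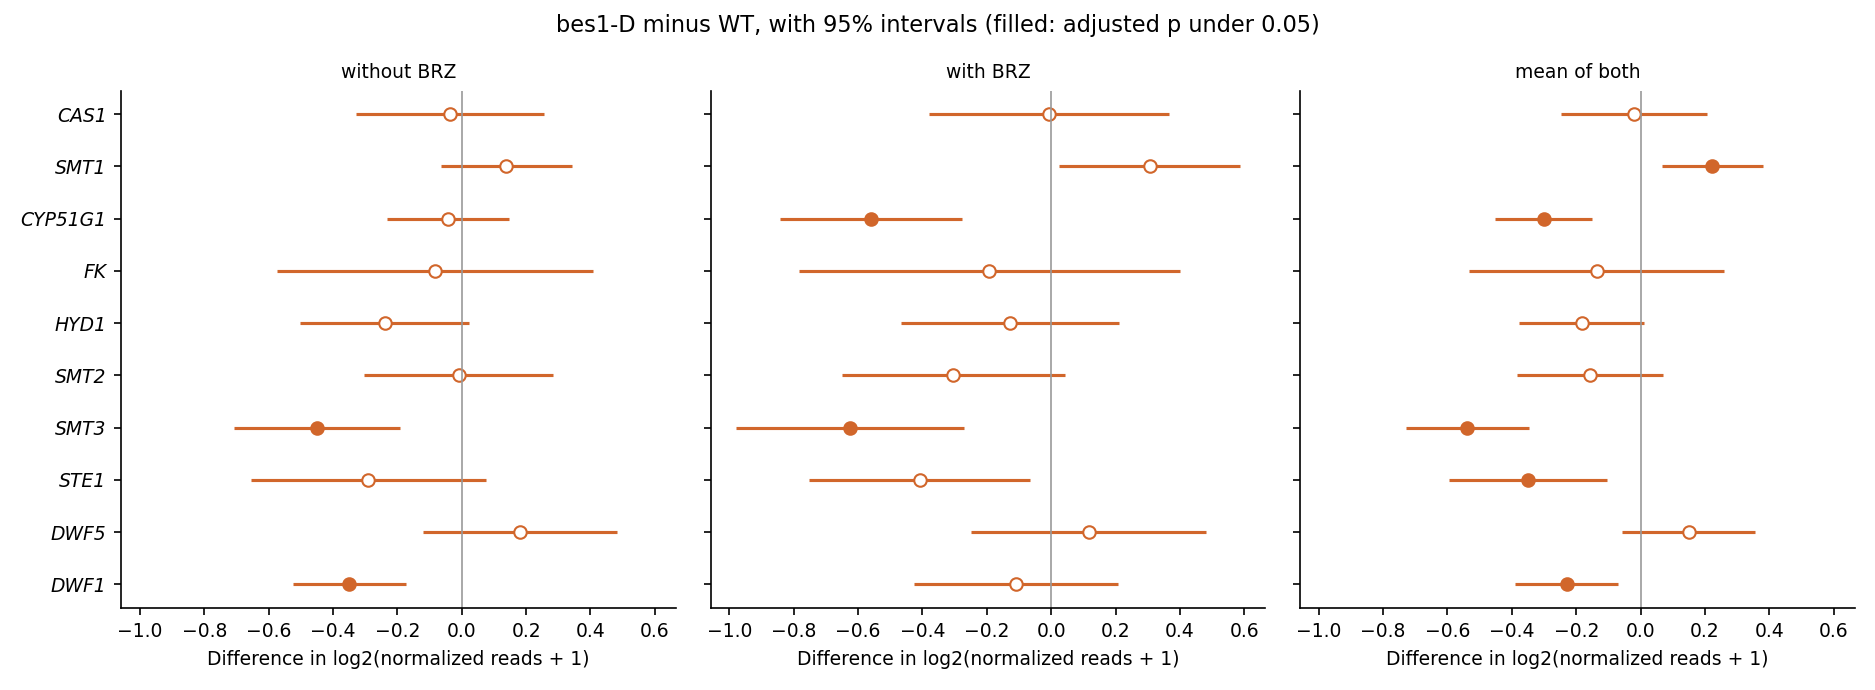
Difference of *bes1-D* from WT in log2(normalized reads + 1) (x axis) for the 10 sterol genes (y axis), without BRZ, with BRZ and averaged, with points as limma estimates, bars as 95% intervals and filled points where the adjusted p is under 0.05. *SMT3* is lower in all 3 panels (-0.45, -0.63 and -0.54), *CYP51G1* with BRZ (-0.56) and on average (-0.30), and *DWF1* without BRZ (-0.35) and on average (-0.23).

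Shoot and root markers also differed between these genotypes. The summed reads of 6 photosynthesis genes were 94610 to 107300 in WT and 89240 to 95020 in *bes1-D* without BRZ, and 108400 to 117800 against 76400 to 87780 with BRZ, with none of the 6 at 0. By single genes, 2 were lower and 1 higher in *bes1-D* in each treatment. Of all genes, 559 of 16270 were lower and 665 higher without BRZ, and 863 of 16294 lower and 938 higher with BRZ. The summed reads of 7 root genes were 533.6 to 713.1 in WT and 566.2 to 595.9 in *bes1-D* without BRZ, and 536.5 to 672.7 against 458 to 513.7 with BRZ. Of the 6 root genes tested, 2 were called higher in *bes1-D* without BRZ and 2 lower with BRZ. *SMT3* lies on the same chromosome arm as *BAF1*, the locus of the insertion in *baf1*. Among the genes around *BAF1*, itself included, 1 of 203 was called in *baf1* without BRZ and 1 of 208 with BRZ. Each time this was *BAF1*, beside 21 of 16235 and 8 of 16379 genes in all. The allele introduced in *bes1-D* is at *BES1*. In *bes1-D* 20 of 201 genes around *BAF1* were called without BRZ and 27 of 201 with BRZ. In all, 1224 of 16270 and 1801 of 16294 genes were called. *HYD1* and *SMT2* lie near *BES1*, the locus of the introduced allele, where 22 of 190 genes were called without BRZ and 35 of 189 with BRZ. Neither of these 2 members was called. The part of shoot and root share and of the sequence around *BES1* in the *bes1-D* differences was not tested.

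BRZ lowers BR levels, and the comparison with untreated seedlings asks how transcripts respond to that loss. In WT, limma called 0 of the 10 sterol genes, beside 0.605% of all tested genes (98 genes, and 37 to 267 when each library was left out in turn, lowest without replicate 3 with BRZ and highest without replicate 5 without BRZ). At an unadjusted p under 0.05 there were 0 of the 10 and 1653 of 16194 genes in all. The median difference of the 10 was -0.06, with single values from -0.23 (*STE1*) to 0.17 (*DWF5*). Their 95% intervals reached from -0.61 at the lowest (*STE1*) to 0.51 at the highest (*DWF5*).

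In *baf1*, limma called 0 of the 10, beside 1.8% of genes, and 2 had an unadjusted p under 0.05. Both were lower at the study's criterion, as were 6.19% of all genes. *SMT1* had 562, 715, 607 and 616 normalized reads without BRZ and 480, 459, 508 and 595 with BRZ. Only the highest treated library, replicate 4, reached into the untreated range. *SMT1* differed by -0.29 (SE 0.10, adjusted p = 0.202), and without replicate 4 of the treated group, the library with the most seed storage reads, by -0.37 (adjusted p = 0.0211). *SMT2* had 230, 231, 278 and 234 without BRZ and 227, 216, 210 and 146 with BRZ, with no overlap, as for 1 of the 10 and 7.72% of genes. It differed by -0.30 (SE 0.13, adjusted p = 0.371; exact permutation p = 0.029), and by -0.15 without the same replicate 4, which held its lowest value.

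In *bes1-D*, 1 of the 10 was called lower with BRZ, *CYP51G1*, beside 0.448% of all genes. That background rests on single libraries, since the 94 genes called in both directions became 1 without replicate 5 of the treated group and 955 without its replicate 1. *CYP51G1* ranged from 397 to 417 normalized reads without BRZ and from 269 to 300 with BRZ. It fell by 0.53 (SE 0.11), to 0.695 of the untreated level (limma, adjusted p = 0.0354; exact permutation p = 0.057, the smallest that 3 against 4 can give), and stood 59th by p among 16309 genes. The call was lost when any library except replicate 1 of the treated group was left out (adjusted p = 0.0665 to 0.166), although the difference stayed between -0.56 and -0.49 over all 7 such fits. It was also lost with no filter on low values (adjusted p = 0.0557).

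At the study's criterion 4 of the 10 were lower in *bes1-D* with BRZ, as were 8.2% of genes. Beside *CYP51G1* these were *SMT2*, from 194 to 242 normalized reads without BRZ and 148 to 185 with BRZ, *SMT3*, from 150 to 191 and 136 to 146, and *STE1*, from 137 to 217 and 117 to 137. Their differences were -0.33, -0.32 and -0.35, with adjusted p of 0.248, 0.287 and 0.305. The difference of *STE1* was -0.21 without replicate 3 of the untreated group, its highest library. The treated and untreated libraries did not overlap for 5 of the 10, these 4 as lower and *HYD1* as higher (126 to 145 against 149 to 188), a state found for 11.5% of all genes. *STE1* came closest to an overlap, with both groups at 137 when rounded.

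The response to BRZ was compared between genotypes by an interaction term. For *bes1-D* against WT 0 of the 10 were called, beside 0.239% of genes. *CYP51G1* had the strongest evidence of the 10, with a difference between the responses of -0.52 (SE 0.14, unadjusted p = 0.00112, adjusted p = 0.105; 0.0246 with no filter on low values). It was the 1 member lower at the study's criterion and the 1 with an unadjusted p under 0.05, where 7.51% of genes were lower. For *baf1* against WT, 0 of the 10 and 0% of all 16315 genes were called. At an unadjusted p under 0.05 there were 0 of the 10 and 944 genes in all.

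Averaged over the 3 genotypes, limma called 0 of the 10 with BRZ, beside 4.39% of genes, and 4 of the 10 had an unadjusted p under 0.05. These 4 were lower at the study's criterion, as were 8.11% of all genes. They were *STE1* (-0.26), *SMT2* (-0.22), *SMT3* (-0.20) and *CYP51G1* (-0.15), with adjusted p from 0.134 to 0.167. Leaving out replicate 4 of WT without BRZ brought *STE1* past the threshold (adjusted p = 0.0375), leaving out replicate 5 of WT brought *SMT2* past it (0.0429), and leaving out replicate 2 of *baf1* with BRZ did so for *CYP51G1* (0.0346).

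**Figure D3:**
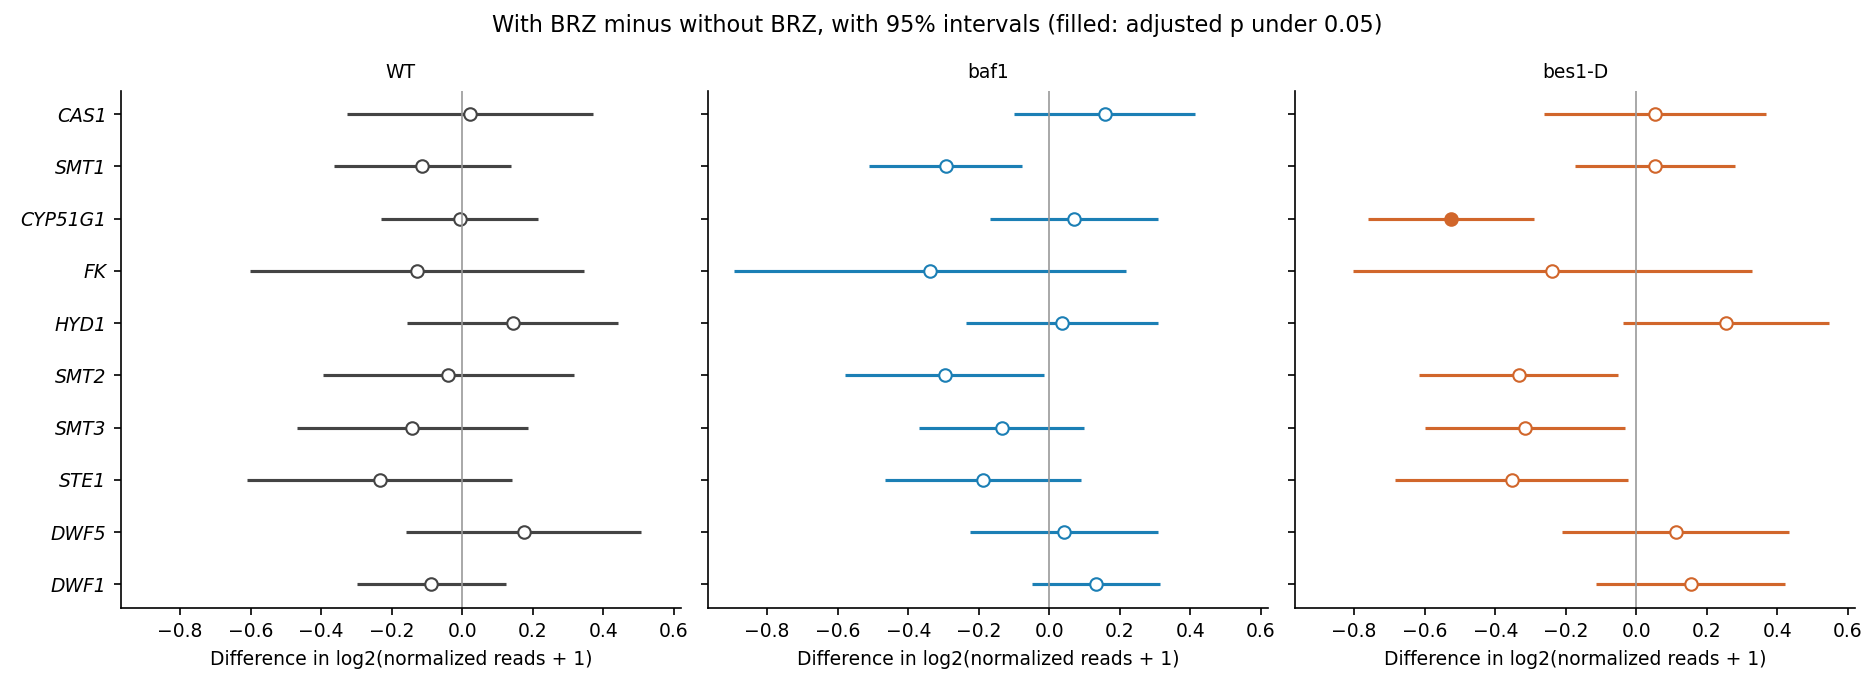
Difference between seedlings with and without BRZ in log2(normalized reads + 1) (x axis) for the 10 sterol genes (y axis) in WT, *baf1* and *bes1-D*, with points as limma estimates, bars as 95% intervals and filled points where the adjusted p is under 0.05. *CYP51G1* in *bes1-D* (-0.53) is the only filled point, and its estimates in WT (-0.01) and *baf1* (0.07) lie near 0.

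Loss of the F-box protein BAF1 was examined against the same WT libraries that served *bes1-D*. Without BRZ limma called 0 of the 10 sterol genes, beside 0.129% of all genes (21 genes, and 9 without replicate 2 or 160 without replicate 5 of WT), and 1 had an unadjusted p under 0.05. That gene was *DWF1*, with 6340, 5376, 5462 and 5773 normalized reads in *baf1* and 6893, 6264, 6359 and 7163 in WT. A single *baf1* library, replicate 1, lay within the lower part of the WT range. *DWF1* was lower at the study's criterion, as were 4.27% of genes, with a difference of -0.22 (SE 0.08, adjusted p = 0.346; exact permutation p = 0.057). The other 9 differed by -0.17 to 0.21.

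With BRZ, limma called 0 of the 10 between *baf1* and WT, beside 0.0488% of genes, and 0 had an unadjusted p under 0.05, beside 918 of 16379 genes. *DWF1* had 6030, 6725, 5606 and 6822 normalized reads in *baf1* and 5794, 6939 and 6122 in WT, fully overlapping, with a difference of 0.00 (95% interval -0.23 to 0.23). Averaged over both treatments, 0 of the 10 were called, beside 0.465% of genes, and 0 had an unadjusted p under 0.05, beside 1708 of 16331 genes. The averaged differences ran from -0.14 (*STE1*, 95% interval -0.38 to 0.09) to 0.15 (*HYD1*, -0.04 to 0.34).

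The averaged differences of the 2 mutants from WT can be set side by side, first for the 5 members called in *bes1-D*. *SMT3* differed by -0.05 in *baf1* and by -0.54 in *bes1-D*, *CYP51G1* by -0.11 and -0.30, *STE1* by -0.14 and -0.35, *DWF1* by -0.11 and -0.23, and *SMT1* by -0.02 and 0.22. Of the members not called, *HYD1* differed by 0.15 and -0.18, *FK* by 0.08 and -0.14, and *SMT2* by 0.02 and -0.16. *DWF5* differed by -0.004 and 0.15, and *CAS1* by -0.10 and -0.02. Both sets of differences use the same WT libraries and are therefore not independent.

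The steps on either side of these 10 genes were read from lists of mevalonate and squalene genes (21), other sterol genes (16) and BR synthesis genes (7). In *bes1-D* the BR synthesis genes, which act directly downstream of campesterol, were lower by much more than the sterol genes. Averaged over both treatments, all 6 that could be tested were lower (median -1.44), as were 8.02% of all genes. The 3 largest falls were *DWF4* (-2.19), *BR6OX2* (-1.79) and *CPD* (-1.78). In WT with BRZ 3 of those 6 were higher, *BR6OX2* (1.42), *DWF4* (1.11) and *CPD* (0.75), beside 41 of 16194 genes in all. The median of the 6 was 0.93.

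Of the mevalonate and squalene genes, 4 of 20 tested were lower in *bes1-D* on average and 1 was higher, with a median of 0.03. Of all tested genes 8.02% were lower and 12.6% higher. The falls with the largest size were those of *PMK* (-0.75, phosphomevalonate kinase), *HMGS* (-0.58, which makes HMG-CoA) and *SQE3* (-0.37, a squalene epoxidase). The remaining fall was that of *HMG1*, encoding the HMG-CoA reductase that commits carbon to the pathway, which is given in more detail because of its high level and was chosen after its values were seen. It averaged 1515 ± 153 normalized reads in WT libraries (SD, n = 4) without BRZ and 1241 ± 109 in *bes1-D* libraries (SD, n = 4). With BRZ the means were 1470 ± 133 and 1086 ± 34.9 (SD, n = 3 each). In *bes1-D* it fell by 0.36 on average (limma, adjusted p = 0.000308). Without BRZ its libraries overlapped between WT (1307 to 1674) and *bes1-D* (1117 to 1350). With BRZ they did not (1324 to 1583 and 1047 to 1113), as for 27.9% of genes. In *baf1* it averaged 1220 ± 57.8 without BRZ and 1251 ± 114 with BRZ (SD, n = 4 each). Every *baf1* library without BRZ (1172 to 1296) was below WT, a lack of overlap found for 6.46% of genes. With BRZ the *baf1* libraries (1119 to 1394) overlapped with WT. For *baf1* against WT on average, limma called 0 of 20 genes of this list. *SQS2*, a squalene synthase gene with a mean of only 11 normalized reads, rose by 0.95.

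Among other sterol genes 2 of 14 were lower in *bes1-D* on average, *CYP710A1* (-0.48), which encodes a desaturase that makes stigmasterol-type sterols, and *SMO2-1* (-0.38), which encodes a methyl oxidase, and 0 were higher, again beside 8.02% and 12.6% of all genes. With BRZ 1 of 14 was lower in WT and in *baf1*, and in both it was *CYP710A2* (-0.55 and -0.40), a relative of *CYP710A1*, where 57 of 16194 and 145 of 16382 genes in all were lower. Of the 21 mevalonate and squalene genes, WT had 19 tested, *baf1* 20 and *bes1-D* 21. In each genotype limma called 0 of them with BRZ, and 0, 5 and 0 had an unadjusted p under 0.05, as did 1653 of 16194, 2042 of 16382 and 2379 of 16309 genes in all.

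**Figure D4:**
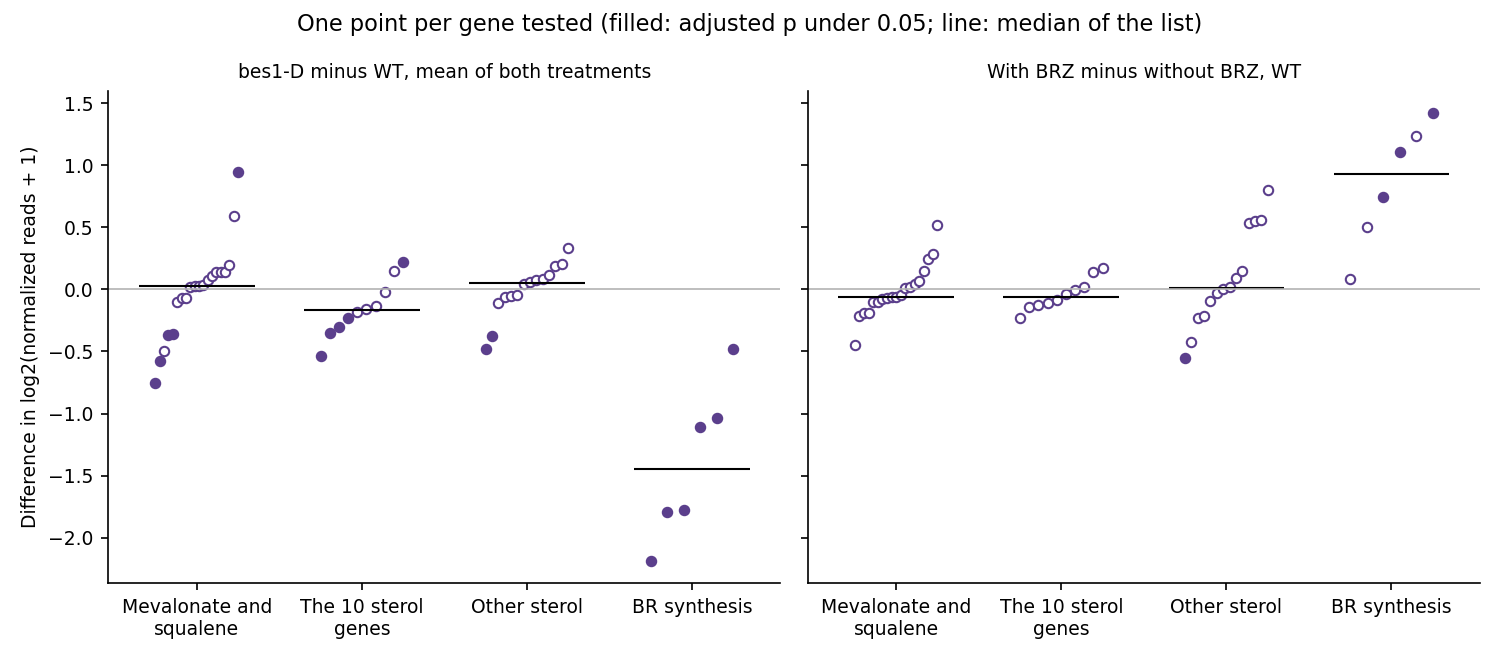
Difference in log2(normalized reads + 1) (y axis) of each tested gene in 4 lists along the route from mevalonate to BRs (x axis), for *bes1-D* minus WT averaged over both treatments and for WT with BRZ minus without BRZ, with filled points where the adjusted p is under 0.05 and a line at the median. The medians of the 10 sterol genes are -0.17 and -0.06, and those of the BR synthesis genes are -1.44 and 0.93.

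The average profile of the sterol genes over the 6 groups was obtained by averaging the standardized log2 values of the 9 members whose mean reached 50 normalized reads, which leaves out *FK*. It was highest in WT without BRZ (0.36) and WT with BRZ (0.31), intermediate in *baf1* (0.06 without and -0.03 with BRZ) and lowest in *bes1-D* (-0.22 without and -0.48 with BRZ). Not all members followed it. *CAS1*, *SMT1* and *DWF5* had their highest group mean in *bes1-D* with BRZ. *HYD1* had its highest in *baf1* with BRZ and *SMT2* in *baf1* without BRZ. Among 9239 other genes, those with the profile most like it over the 6 group means were *BPM2* (Pearson r = 0.999), *BTI1* (0.999), AT2G45590 (0.995), AT1G11360 (0.991) and AT1G01240 (0.989). With 6 points and 9239 genes searched, such values are a description of likeness only.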

How the data were processed

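Total RNA of whole seedlings was sequenced with the QuantSeq 3′ kit. Trimming of the 50-base single-end reads and mapping to TAIR10 were done by the authors in the BlueBee pipeline (the submitters' processing notes name STAR, HTSeq and edgeR). The deposited table holds signal values and carries TMM in its name. The deposited signal is not whole numbers, so no count test was used, and 0 per-sample columns were left out. The pipeline was the FWD version of this stranded assay, and the strand option of the counting step is not given in the sources used here. Depth (2130000 to 5170000 reads) was estimated from 300 low genes assuming a dispersion of 0.05, and bounds counting error only.

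Differences were fitted with limma 3.58.1 in R 4.3.3 (mean-variance trend) on log2(value + 1) for genes averaging 10 or more normalized reads, with Benjamini-Hochberg adjustment over all genes tested. This scale understates changes of low genes. Pairwise fits used the groups compared, interactions used 4 groups, and averages and the F test used all 22 libraries. Exact two-sided permutation tests were run on single genes. The fitting was tested on simulated data. Members, lists and alternatives were chosen with earlier results of these data known. All 10 members were named, and from each list and comparison at most 3 genes with the largest rise and 3 with the largest fall past the adjusted threshold, besides *HMG1*, which was added after its values were seen. Names, positions and promoters came from RefSeq TAIR10.1, which matched 32548 of 32833 identifiers. All positions are on TAIR10.1. Plots used matplotlib 3.10.9 in Python 3.11.15. The authors' lists of DEGs and PoissonSeq were not used. Alternatives were pseudocounts of 0.1 and 5, no filter, a minimum mean of 50, median-of-ratios scaling, all 22 libraries, the replicate block and leaving out each library. In pairwise fits the block used only replicate numbers present in both groups.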

Additional observations from a re-analysis of the deposited data

Results flagged for a closer look

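In groups of 4 libraries, 3 of the 40 sets of values of the sterol genes had a library far from the others, and chance alone puts about 1 in 20 such sets past this limit (a gap to the nearest library above 0.829 of the whole range). *CAS1* in WT without BRZ had 266 normalized reads in replicate 5 against 168 to 182 in the others (gap of 0.857 of the range). *CAS1* in *baf1* with BRZ had 172 in replicate 1 against 198 to 203 (0.849). *SMT2* in *baf1* without BRZ had 278 in replicate 3 against 230 to 234 (0.921). None of the comparisons called *CAS1* or *SMT2* in the full data.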

How the results depend on the processing

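The values below count how many of the 10 sterol genes were called at the adjusted threshold. With no filter on low values there were 0 (2 with the filter) for *bes1-D* without BRZ, 1 (2) for *bes1-D* with BRZ, 2 (5) for the *bes1-D* average, 0 (1) for BRZ in *bes1-D*, 2 (4) for any difference and 1 (0) for the interaction of *bes1-D* and BRZ. Leaving out each library in turn gave 0 to 2 for *bes1-D* without BRZ, 1 to 2 for *bes1-D* with BRZ, 2 to 5 for the *bes1-D* average, 0 to 1 for BRZ in *baf1*, in *bes1-D* and on average, and 2 to 4 for any difference. The cause of these changes was not tested. Replicate numbers were not taken to pair the libraries, since only 9 of 19 same-numbered pairs correlated above 0.1 (range -0.35 to 0.413), although all 7 pairs of number 1 did (0.135 to 0.413). With the replicate number as a block, pairwise fits also dropped each library whose number the other group lacked. The block and the dropped libraries therefore cannot be told apart in them. BRZ in *bes1-D*, left with replicates 1 and 3 of each group, gave 0 called members (*CYP51G1* -0.51, adjusted p = 0.387). The BRZ average, which kept all 22 libraries, gave 1 (*STE1* -0.31, adjusted p = 0.0353). Without BRZ these pairwise fits, on replicates 1, 2 and 4, moved all genes called from 21 to 312 for *baf1* and from 1224 to 2219 for *bes1-D*. Leaving out replicate 5 of WT alone, with no block, gave 160 and 1786. With BRZ such fits moved all genes called from 8 to 49 for *baf1*, and for the BRZ comparisons from 98 to 441 in WT and from 94 to 0 in *bes1-D*. With no filter all genes called went from 21 to 9 for *baf1* and from 1224 to 598 for *bes1-D* without BRZ, from 8 to 4 and from 1801 to 430 with BRZ, from 98 to 17, 295 to 23 and 94 to 4 for BRZ in WT, *baf1* and *bes1-D*, from 76 to 49 for the *baf1* average, and from 39 to 19 for the interaction of *bes1-D* and BRZ, and from 0 to 1 for that of *baf1* and BRZ. A fit to all 22 libraries gave 198 and 18 genes for BRZ in WT and *bes1-D*, 19 for *baf1* with BRZ, and 86 for the interaction of *bes1-D* and BRZ. Leaving out each library moved all genes called to between 695 and 1786 for *bes1-D* and 9 and 160 for *baf1* without BRZ, 994 and 2083 and 7 and 18 with BRZ, 37 and 267, 157 and 557 and 1 and 955 for BRZ in WT, *baf1* and *bes1-D*, 34 and 91 for the *baf1* average, and 10 and 197 for the interaction of *bes1-D* and BRZ. Of 568 values of single genes called in some reading, 487 stayed on their side of the threshold, 75 fell short of it, 6 passed it and 0 turned their direction. The libraries of 2130000 to 5170000 reads limit *FK* most, at 16.77 to 51.05 normalized reads.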
